A study of Rattus norvegicus with 36 samples.

Results

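The genes described here make or control cholesterol in rat liver. Of the 10, 8 encode enzymes of the pathway (Mvd, Idi1, Fdps, Fdft1, Sqle, Lss, Cyp51 and Sc5d) and 2 encode its regulators, Srebf2 and Insig1. They were taken as every probe set whose symbol in the platform annotation was one of these names, which gave 17 of 31042 tested probe sets. Cyp51, Idi1, Fdft1, Lss and Srebf2 had 2 probe sets each, Sc5d had 3, and Sqle, Fdps, Mvd and Insig1 had 1. The rule uses symbols alone, for genes picked with earlier results of these data known.

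Male Harlan Sprague Dawley rats, 7 weeks old at the start, received the brominated flame retardant hexabromocyclododecane (HBCD) by gavage on 5 days in a row, in 5 ml of corn oil per kg. RNA came from the left liver lobe 1 day after the last dose. The 36 arrays formed 6 groups of 6, namely vehicle (corn oil without HBCD) and HBCD doses of 0.06 and 0.641, of 6.41 and 64.1, and of 641 mg/kg. All groups shared strain, sex, diet, vehicle and schedule, and the RNA is that of whole liver, in which fewer cells of a type and less RNA per cell cannot be told apart.

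Cholesterol is built from acetyl-CoA through mevalonate, isoprenoids, squalene and a series of sterols, and the liver is a main site of this synthesis. The transcription factor SREBP2, encoded by Srebf2, is held in the endoplasmic reticulum by INSIG proteins while sterols are plentiful. When sterols run low it is carried to the Golgi, cut free, and switches on the genes of the pathway, including Insig1 and Srebf2 itself. In rodent liver these genes are also known to follow feeding and the time of day.

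Values are log2 probe set levels made with RMA, which subtracts background, scales the arrays to one another and combines the probes into 1 value, so that 1 unit is a 2-fold difference. Array medians lay between 4.829 and 4.899, and 16 of the 17 probe sets had a mean of at least 6 in some group. The exception was 1377489_at, the dimmer set of Srebf2, which averaged 3.13 over all arrays, below every array median. A gene with several probe sets is represented below by the set with the highest mean, and levels are compared only within a probe set. Of the liver's own markers, 5 of 6 hepatocyte genes were measured, and their mean level lay between 13.57 and 13.75 on every array. The mean of the 6 exocrine pancreas genes lay between 4.66 and 4.90. Among these Cela1 averaged 9.72 over all arrays and the rest 3.04 to 4.48. The lists hold different probe sets, so these means describe each list and are not a measured ratio between them.

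Regulation of the pathway is known to run through short elements just before the start of each gene. SREBP binds sterol elements there, usually beside sites for the factors NF-Y and Sp1. RefSeq windows (assembly GRCr8) covering the 250 bases before the start were found for 8 of the 10 genes. Of these, 6 are shown, for the 2 pairs that varied most closely together (Idi1 with Cyp51, Lss with Mvd), for Fdps, which like Idi1 holds the NF-Y letters at 2 places, and for the regulator Srebf2. They are Idi1 at chr17:66547525-66547774 (minus strand), Cyp51 at chr4:30991443-30991692 (plus), Lss at chr20:12118231-12118480 (minus), Mvd at chr19:67414975-67415224 (minus), Fdps at chr2:176804817-176805066 (minus) and Srebf2 at chr7:115543057-115543306 (plus). Each is written 5′ to 3′ along its gene, with capitals on the NF-Y core CCAAT, read on either strand.
Idi1: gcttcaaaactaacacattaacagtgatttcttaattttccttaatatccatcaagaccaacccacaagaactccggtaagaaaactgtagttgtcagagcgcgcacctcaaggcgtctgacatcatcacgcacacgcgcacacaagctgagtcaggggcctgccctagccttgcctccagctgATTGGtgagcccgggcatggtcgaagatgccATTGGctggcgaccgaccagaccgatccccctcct
Cyp51: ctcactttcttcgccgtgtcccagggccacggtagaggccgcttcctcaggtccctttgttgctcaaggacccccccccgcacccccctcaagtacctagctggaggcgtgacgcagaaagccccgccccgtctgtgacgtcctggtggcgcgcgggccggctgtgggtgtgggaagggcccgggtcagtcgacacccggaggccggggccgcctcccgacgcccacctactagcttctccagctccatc
Lss: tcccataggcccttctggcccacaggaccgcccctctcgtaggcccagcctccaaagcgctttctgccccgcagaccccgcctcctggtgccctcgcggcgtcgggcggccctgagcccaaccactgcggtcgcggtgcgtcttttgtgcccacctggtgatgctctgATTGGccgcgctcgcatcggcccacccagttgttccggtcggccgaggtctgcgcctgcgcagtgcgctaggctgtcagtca
Mvd: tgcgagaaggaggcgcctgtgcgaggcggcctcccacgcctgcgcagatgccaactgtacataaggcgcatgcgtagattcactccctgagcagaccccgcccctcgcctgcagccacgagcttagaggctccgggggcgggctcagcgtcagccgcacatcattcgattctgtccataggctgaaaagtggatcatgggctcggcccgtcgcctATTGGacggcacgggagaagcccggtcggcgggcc
Fdps: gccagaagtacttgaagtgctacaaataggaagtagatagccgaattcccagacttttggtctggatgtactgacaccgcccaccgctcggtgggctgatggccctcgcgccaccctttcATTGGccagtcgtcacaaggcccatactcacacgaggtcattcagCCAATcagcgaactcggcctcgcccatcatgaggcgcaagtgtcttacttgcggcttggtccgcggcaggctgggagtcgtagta
Srebf2: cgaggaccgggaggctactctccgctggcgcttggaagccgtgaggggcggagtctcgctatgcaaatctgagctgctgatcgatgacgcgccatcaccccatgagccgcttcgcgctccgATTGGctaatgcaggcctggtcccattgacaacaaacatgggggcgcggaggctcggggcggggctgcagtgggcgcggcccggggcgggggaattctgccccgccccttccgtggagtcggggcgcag

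CCAAT was present in 7 of the 8 windows, all but that of Cyp51, and in 34% of 33469 windows of the same length. Idi1 held it 66 to 62 and again 35 to 31 bases before the start, Fdps 130 to 126 and again 85 to 81, Mvd 35 to 31, Lss 82 to 78 and Srebf2 129 to 125 bases before it. The Sp1 core GGGCGG was present in 7 of the 8, all but Idi1, and in 30.5% of all windows, with 4 matches in Srebf2. The classic sterol element, searched as TCACNCCAC, was in none of the 8 and in 0.974% of all windows. All were searched as exact letters on both strands, and no matches in these windows overlap. A match is a description and not a binding site, and a missing match says only that these letters are not in the window.

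The design compares each dose with vehicle. Among these genes that comparison gave 1 change that passed the test. Sc5d, which encodes the lathosterol oxidase late in the pathway, rose at 641 mg/kg on 1 of its 3 probe sets. The other probe sets of the enzymes were 1.09-fold to 1.27-fold vehicle at that dose and did not pass, and Insig1 and Srebf2 did not pass at any dose. The median log2 difference over the 10 genes was 0.17 at 0.641, 0.22 at 6.41, 0.11 at 64.1 and 0.21 at 641 mg/kg. Insig1 and Srebf2 had their largest differences at 64.1 mg/kg, -0.47 and 0.18 on the log2 scale.

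With limma, and Benjamini-Hochberg adjustment over all 31042 probe sets, 0 of the 17 probe sets passed an adjusted p of 0.05 at 0.06, 0.641, 6.41 or 64.1 mg/kg. Over all probe sets the share passing was 0% at 0.06, 0.641 and 6.41 mg/kg and 0.0419% at 64.1 mg/kg. At 641 mg/kg 1 of 17 passed, 5.88%, against 1.65% of all probe sets. An F test over the 5 doses together called 0 of 17 (0.773% of all), and a slope over the dose ranks called 0 of 17 (1.35% of all). At an unadjusted p under 0.05, limma gave 1, 6, 8, 1 and 10 of 17 at the 5 doses from low to high, where 4.17%, 4.76%, 4.13%, 5.94% and 11.4% of all probe sets did. It gave 3 of 17 for the F test (8.24% of all) and 9 of 17 for the slope (10.4% of all). All but 1 of the counted single-dose differences were above 0, the exception being the dim Srebf2 set at 641 mg/kg. No member had groups without overlap at any dose, where 0.135%, 0.151%, 0.18%, 0.351% and 1.71% of all probe sets did from the lowest dose to the highest.

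The direction was shared more widely than the calls. The log2 difference from vehicle was above 0 in 14, 16, 16, 15 and 15 of the 17 probe sets at the 5 doses in the same order, where 48.2%, 48.9%, 49.4%, 51.6% and 46.9% of all probe sets were above 0. It was above 0 at all 5 doses in 13 of 17, against 15.5% of all probe sets. The median over the 10 genes was 0.10 at 0.06 mg/kg, and over all 14217 genes it stayed between -0.01 and 0.00 at the 5 doses. The 5 comparisons use the same 6 vehicle arrays and the genes vary together between arrays, so these counts are not independent of one another and have no p of their own.

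**Figure D1:**
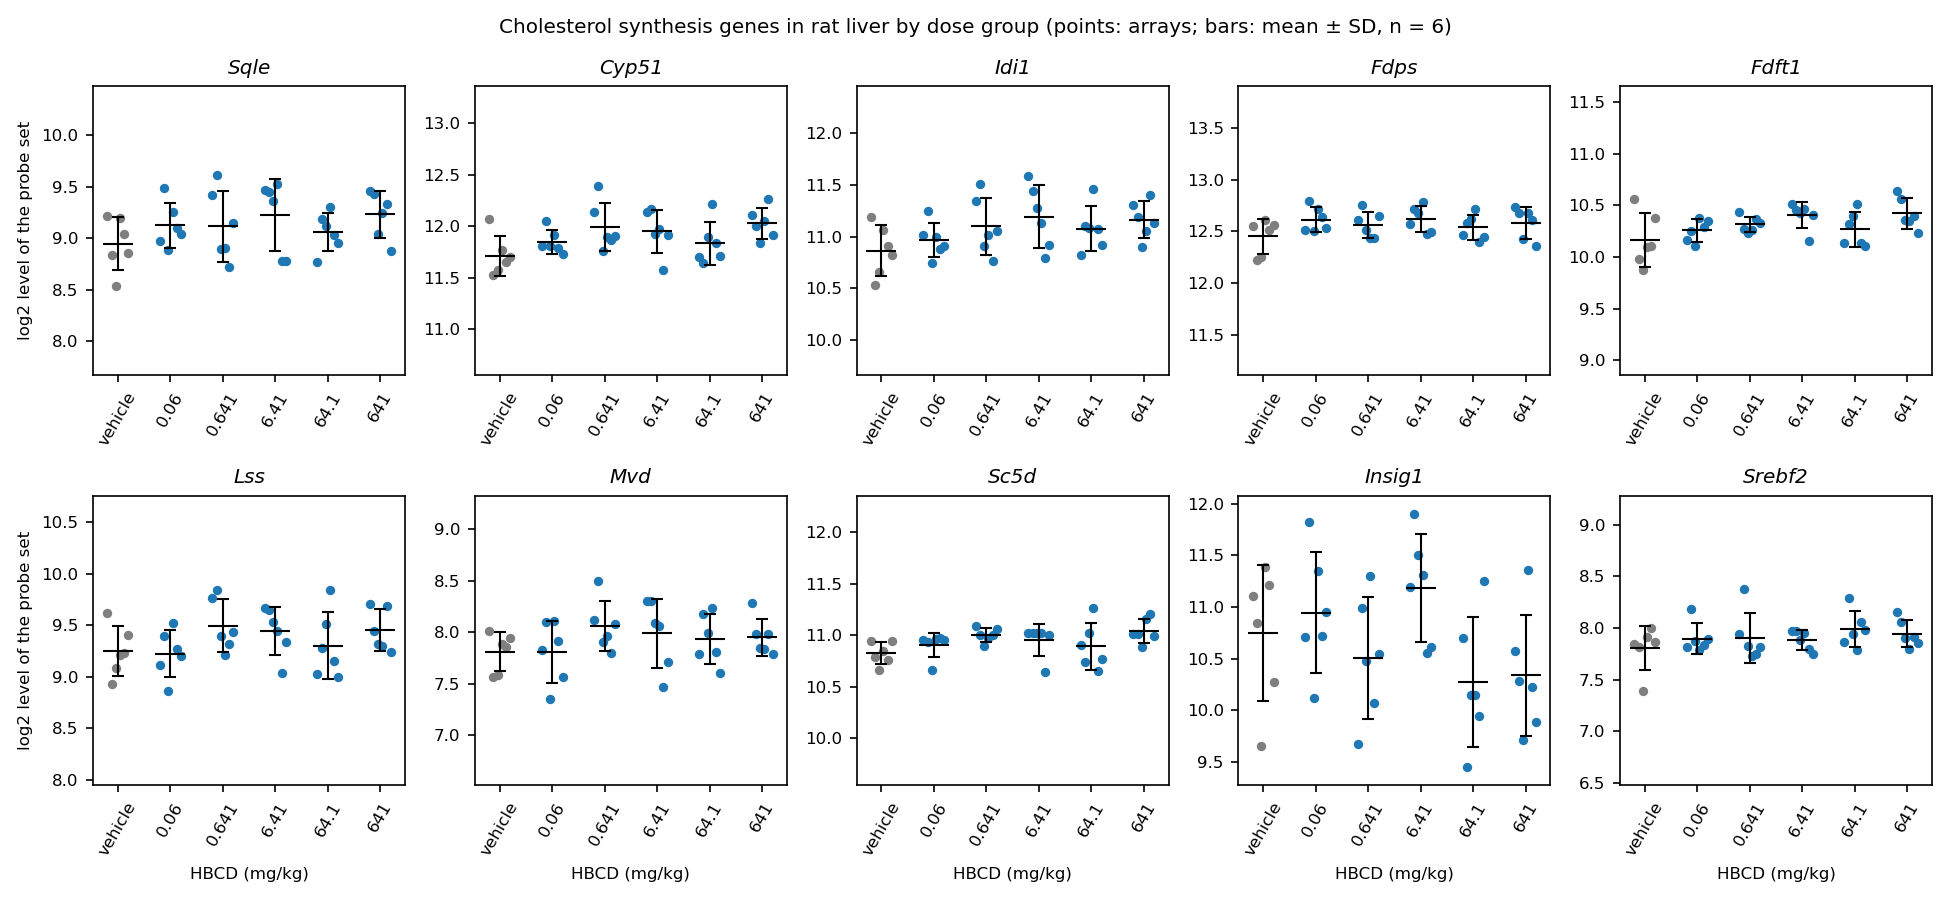
Log2 level of each of the 10 genes (y axis, the same span in every panel) on each array by dose group (x axis, HBCD in mg/kg), with points for arrays and bars for mean ± SD of 6 arrays. In every panel the arrays of each dose overlap those of vehicle, and Insig1 spreads the most, with SDs of 0.52 to 0.66.

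Mvd, Idi1 and Fdps turn mevalonate products into farnesyl diphosphate. For Mvd, the decarboxylase that makes isopentenyl diphosphate, the lowest, median and highest levels of 6 arrays were 7.57, 7.87 and 8.01 in vehicle, 7.35, 7.87 and 8.11 at 0.06, 7.80, 8.02 and 8.49 at 0.641, 7.47, 8.08 and 8.30 at 6.41, 7.61, 7.90 and 8.24 at 64.1, and 7.79, 7.91 and 8.28 at 641 mg/kg. The highest vehicle array lay below the median at 0.641 and 6.41 mg/kg, and all groups overlapped. Mvd averaged 7.95 ± 0.18 at 641 mg/kg and 7.81 ± 0.19 in vehicle, a ratio of 1.10-fold (95% CI 0.908 to 1.34; adjusted p = 0.784).

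Idi1 encodes the isomerase that makes dimethylallyl diphosphate. Its lowest, median and highest levels were 10.53, 10.87 and 11.19 in vehicle, 10.75, 10.95 and 11.25 at 0.06, 10.76, 11.03 and 11.51 at 0.641, 10.79, 11.21 and 11.59 at 6.41, 10.82, 11.08 and 11.46 at 64.1, and 10.90, 11.16 and 11.40 at 641 mg/kg. All 6 arrays at 641 mg/kg lay above the vehicle mean, although 11.19 in vehicle exceeded the median at that dose. The means were 11.16 ± 0.18 at 641 mg/kg and 10.86 ± 0.25 in vehicle (1.23-fold, 95% CI 1.03 to 1.48; adjusted p = 0.326). The second probe set, 1388872_at, gave 1.27-fold (adjusted p = 0.262). At 6.41 mg/kg the ratios were 1.26-fold and 1.27-fold, with an adjusted p of 1 for both.

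Fdps, the synthase of farnesyl diphosphate, is shared by sterols and other isoprenoids. Its lowest, median and highest levels were 12.23, 12.53 and 12.61 in vehicle, 12.50, 12.58 and 12.79 at 0.06, 12.43, 12.56 and 12.75 at 0.641, 12.48, 12.63 and 12.78 at 6.41, 12.40, 12.53 and 12.72 at 64.1, and 12.36, 12.65 and 12.73 at 641 mg/kg. Its arrays spread little, with SDs of 0.12 to 0.17, and the vehicle group held the lowest. Fdps averaged 12.58 ± 0.15 at 641 mg/kg and 12.45 ± 0.17 in vehicle (1.09-fold, 95% CI 0.979 to 1.22; adjusted p = 0.572).

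Fdft1, Sqle and Lss make squalene, oxidise it and close it into lanosterol. For Fdft1, the squalene synthase, the lowest, median and highest levels were 9.87, 10.10 and 10.56 in vehicle, 10.11, 10.27 and 10.38 at 0.06, 10.23, 10.30 and 10.43 at 0.641, 10.16, 10.44 and 10.51 at 6.41, 10.11, 10.23 and 10.51 at 64.1, and 10.23, 10.37 and 10.64 at 641 mg/kg. Vehicle held both the lowest and one of the highest arrays, and its SD of 0.26 was the widest of the 6 groups for this gene. Fdft1 averaged 10.42 ± 0.15 at 641 mg/kg and 10.16 ± 0.26 in vehicle (1.20-fold, 95% CI 1.05 to 1.36; adjusted p = 0.167), and its other probe set gave 1.14-fold (adjusted p = 0.389).

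Sqle encodes squalene epoxidase, a rate-limiting step of the sterol branch. Its lowest, median and highest levels were 8.53, 8.95 and 9.22 in vehicle, 8.88, 9.07 and 9.48 at 0.06, 8.72, 9.02 and 9.62 at 0.641, 8.77, 9.40 and 9.52 at 6.41, 8.77, 9.07 and 9.30 at 64.1, and 8.87, 9.29 and 9.46 at 641 mg/kg. At 6.41 mg/kg 2 arrays lay near 8.77 and the other 4 at or above 9.36, so the group median exceeded every vehicle array while its lowest array did not. Sqle averaged 9.23 ± 0.23 at 641 mg/kg and 8.94 ± 0.26 in vehicle (1.22-fold, 95% CI 0.989 to 1.4997; adjusted p = 0.474).

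Lss, the lanosterol synthase, had lowest, median and highest levels of 8.93, 9.22 and 9.62 in vehicle, 8.86, 9.23 and 9.52 at 0.06, 9.21, 9.41 and 9.84 at 0.641, 9.04, 9.49 and 9.67 at 6.41, 8.99, 9.21 and 9.84 at 64.1, and 9.24, 9.38 and 9.71 at 641 mg/kg. The medians at 0.06 and 64.1 mg/kg were close to that of vehicle, and 64.1 mg/kg also held a single high array of 9.84. Lss averaged 9.45 ± 0.20 at 641 mg/kg and 9.25 ± 0.24 in vehicle (1.15-fold, 95% CI 0.948 to 1.39; adjusted p = 0.634).

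Cyp51 and Sc5d act after lanosterol. Cyp51, the lanosterol demethylase, had lowest, median and highest levels of 11.52, 11.68 and 12.07 in vehicle, 11.73, 11.80 and 12.05 at 0.06, 11.76, 11.90 and 12.39 at 0.641, 11.57, 11.95 and 12.16 at 6.41, 11.64, 11.77 and 12.22 at 64.1, and 11.84, 12.02 and 12.27 at 641 mg/kg. All 6 arrays at 0.06, 0.641 and 641 mg/kg lay above the vehicle mean of 11.71, while the highest vehicle array, 12.07, exceeded the median of every dose group. Cyp51 averaged 12.03 ± 0.15 at 641 mg/kg and 11.71 ± 0.19 in vehicle (1.24-fold, 95% CI 1.07 to 1.44; adjusted p = 0.149), and its second probe set gave 1.24-fold (adjusted p = 0.159).

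Sc5d gave the 1 call. On probe set 1387926_at its lowest, median and highest levels were 10.43, 10.56 and 10.96 in vehicle, 10.55, 10.72 and 10.94 at 0.06, 10.73, 10.85 and 11.01 at 0.641, 10.56, 10.84 and 11.06 at 6.41, 10.50, 10.73 and 11.12 at 64.1, and 10.77, 10.93 and 11.11 at 641 mg/kg. All 6 arrays at 641 mg/kg lay above the vehicle mean, and 1 vehicle array lay inside their range. The means were 10.94 ± 0.11 at 641 mg/kg and 10.60 ± 0.19 in vehicle, a rise of 1.26-fold (95% CI 1.11 to 1.43; adjusted p = 0.0408). The call rests on a narrow margin: without any 1 of vehicle replicates 2 to 6, or of replicates 1, 3, 4, 5 or 6 at 641 mg/kg, the adjusted p lay between 0.0609 and 0.114. Without vehicle replicate 1 it was 0.00613, and Fdft1 (adjusted p = 0.0247) and Cyp51 (adjusted p = 0.0497) also passed. With only these 2 groups in the fit the adjusted p was 0.0793, and the call was also lost when p was adjusted over the 5 doses together or the 3 sets were averaged.

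The other 2 Sc5d probe sets did not pass. The set with the highest mean, 1389111_at, had lowest, median and highest levels of 10.67, 10.82 and 10.95 in vehicle, 10.66, 10.95 and 10.97 at 0.06, 10.89, 11.00 and 11.09 at 0.641, 10.64, 11.02 and 11.03 at 6.41, 10.65, 10.84 and 11.26 at 64.1, and 10.88, 11.01 and 11.20 at 641 mg/kg. At 641 mg/kg it averaged 11.04 ± 0.12, and in vehicle 10.83 ± 0.11 (1.16-fold, 95% CI 1.04 to 1.302; adjusted p = 0.222). The ratio on 1390777_at was 1.20-fold (adjusted p = 0.165), so the 3 sets of Sc5d differed from vehicle in the same direction and by overlapping intervals.

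**Figure D2:**
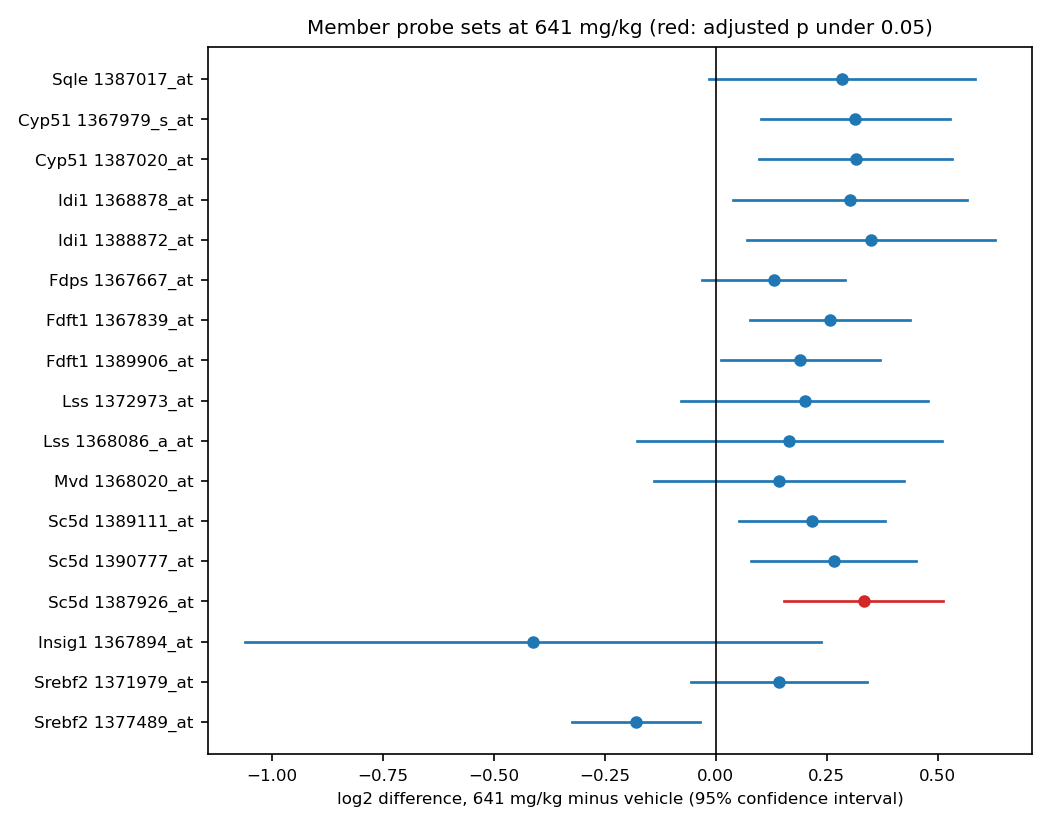
Log2 difference of each of the 17 probe sets at 641 mg/kg from vehicle (x axis), with points for the estimate and lines for the 95% confidence interval, 6 arrays a group. Only Sc5d 1387926_at, in red, passed the test, 15 of 17 estimates lie above 0, and Insig1 has the widest interval.

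Insig1 varied more between arrays than any enzyme here, and Srebf2 about as much as they did. Insig1, whose product holds the SREBP escort in the endoplasmic reticulum and is itself a target of SREBP2, had lowest, median and highest levels of 9.65, 10.98 and 11.39 in vehicle, 10.12, 10.84 and 11.83 at 0.06, 9.67, 10.51 and 11.30 at 0.641, 10.55, 11.25 and 11.90 at 6.41, 9.45, 10.15 and 11.25 at 64.1, and 9.71, 10.25 and 11.36 at 641 mg/kg. Within a group the highest array was 2.56-fold to 3.48-fold the lowest, and every dose group overlapped vehicle. Insig1 averaged 10.34 ± 0.58 at 641 mg/kg and 10.75 ± 0.66 in vehicle (0.752-fold, 95% CI 0.480 to 1.18; adjusted p = 0.701). Only 1 of 6 arrays at 641 mg/kg and 1 of 6 at 64.1 mg/kg lay above the vehicle mean, while 4 of 6 did at 6.41 mg/kg, where the ratio was 1.35-fold (adjusted p = 1).

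Srebf2 had lowest, median and highest levels of 7.39, 7.86 and 8.00 in vehicle, 7.78, 7.85 and 8.19 at 0.06, 7.73, 7.82 and 8.38 at 0.641, 7.75, 7.92 and 7.98 at 6.41, 7.79, 7.96 and 8.29 at 64.1, and 7.80, 7.91 and 8.16 at 641 mg/kg. Its medians lay between 7.82 and 7.96, with 1 low vehicle array and 1 high array at 0.641 mg/kg. Srebf2 averaged 7.95 ± 0.13 at 641 mg/kg and 7.80 ± 0.21 in vehicle (1.10-fold, 95% CI 0.961 to 1.27; adjusted p = 0.641). Its dim probe set gave the opposite sign, 0.883-fold (adjusted p = 0.275), and correlated with the brighter set between arrays at r = 0.230.

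Beside these dose differences stands the spread between arrays of the same group. The pooled within-group SD was 0.21 (median of the 10 genes), against 0.14 for all probe sets. Insig1 had the widest, 0.60, at the 99.6th percentile of all probe sets, followed by Sqle (0.27), Mvd (0.25), Lss (0.25) and Idi1 (0.24), which lay between the 93.3rd and 95.8th percentiles. Fdps (0.14) and Sc5d (0.14) lay near the middle, at the 45.3rd and 48.3rd. The largest dose difference of a gene came to between 0.795 of its SD for Insig1 and 1.66 of its SD for Cyp51.

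That spread was shared. Each level was set against the mean of its own group, and the deviations were compared between genes over the 36 arrays. All 28 pairs of the 8 enzymes correlated above 0, with a median r of 0.716 and a range of 0.463 to 0.883. Each passed a permutation test that shuffled arrays within groups (100000 resamples, two-sided), with adjusted p of at most 0.00349 over the 45 pairs of the 10 genes. The Spearman rho ran from 0.493 to 0.863 in these pairs, and r without the 2 arrays farthest from the median on one gene of the pair ran from 0.396 to 0.867. Over all 27517071 pairs of the 7419 genes with a mean level of at least 6, the median r was 0.04, and 0.752% of those pairs reached the median of the 45 pairs, 0.587.

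The closest pair was Cyp51 with Idi1, at r = 0.883 (rho = 0.826; adjusted p = 3.21e-05), the smallest adjusted p that these resamples gave. The 2 genes lay on the same side of their group means on 28 of 36 arrays, and r was 0.853 without the 2 farthest arrays. Lss with Mvd followed at r = 0.859 (rho = 0.863; 0.867 without 2 arrays), and Sqle with Idi1 at r = 0.853 (rho = 0.856; 0.817 without 2 arrays). Sqle with Fdps reached 0.838 and the signs matched on 33 of 36 arrays. The weakest enzyme pair was Sqle with Sc5d, at r = 0.463 (rho = 0.494; adjusted p = 0.00349; 0.422 without 2 arrays).

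Probe sets annotated to the same gene give a yardstick. They correlated at r = 0.935 for Lss, 0.905 for Idi1, 0.888 for Cyp51 and 0.856 for Fdft1, and at 0.724 to 0.851 for the 3 sets of Sc5d. The 2 sets of Srebf2, 1 of them dim, correlated at 0.230. Pairs such as Cyp51 with Idi1 thus correlated about as closely as 2 probe sets of 1 enzyme gene, although no test of that difference was made.

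With the deviations of all groups pooled, Insig1 was only loosely tied to the enzymes. Srebf2 was tied more closely to some of them than to others. The 9 pairs with Insig1 had a median r of 0.320, and 2 passed, those with Sqle (r = 0.441; rho = 0.427; adjusted p = 0.0156) and Fdps (r = 0.436; rho = 0.481; adjusted p = 0.0205). Without the 2 farthest arrays these were 0.385 and 0.451. Insig1 went with the enzymes on some arrays and against them on others. All 8 enzymes lay below their group means on vehicle replicate 3 and on replicate 6 at 64.1 mg/kg. Insig1 deviated there by -1.10 and 0.98 log2 units. All 8 lay above on replicate 2 at 6.41 mg/kg and replicate 1 at 0.641 mg/kg, where Insig1 deviated by 0.72 and -0.84. Whether its tie to the enzymes differs between groups was not tested. The 9 pairs with Srebf2 had a median r of 0.360, and 4 passed, with Sqle (r = 0.686), Mvd (0.543), Fdps (0.518) and Idi1 (0.516). By Spearman rho 5 of the 9 passed. Sc5d and Srebf2 did not correlate detectably (r = -0.074; rho = -0.054; adjusted p = 0.677), and neither did Insig1 and Srebf2 (r = 0.275; rho = 0.234; adjusted p = 0.159). In all, 34 of the 45 pairs passed.

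**Figure D3:**
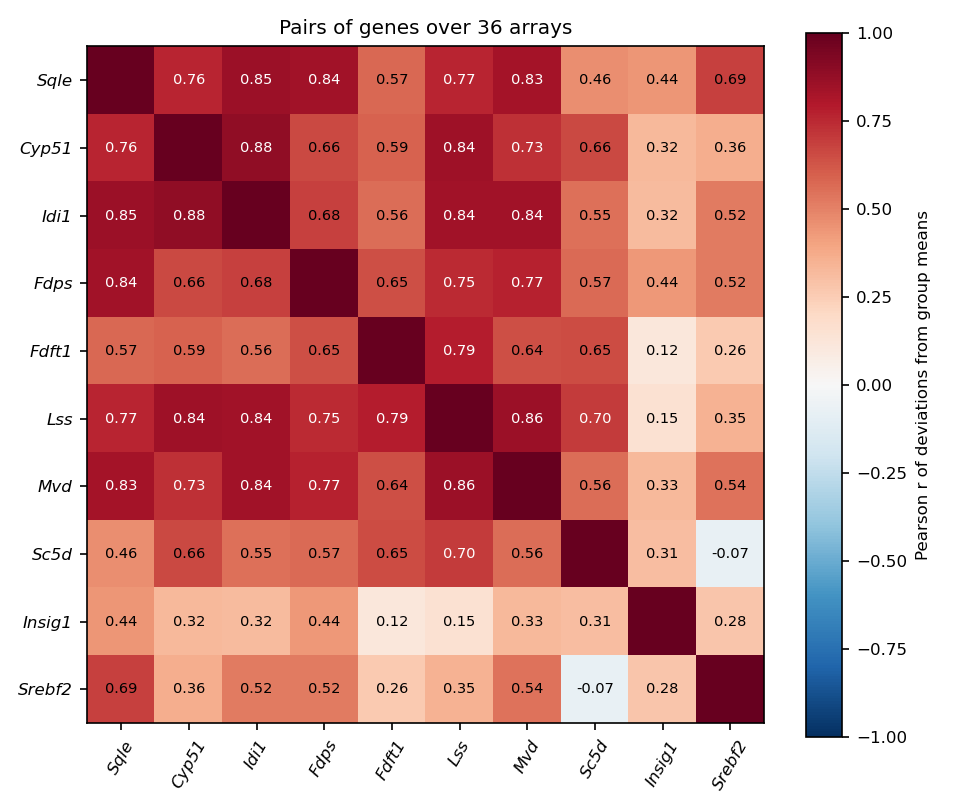
Pearson r of the deviations from group means for each pair of the 10 genes over 36 arrays, printed and coloured from -1 (blue) to 1 (red). The 8 enzymes form a block with r of 0.46 to 0.88, and the rows of Insig1 and Srebf2 are paler, with r from -0.07 to 0.69.

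The correlation was present within single groups of 6 arrays. The median r of the 28 enzyme pairs was 0.800 in vehicle, 0.743 at 0.06, 0.836 at 0.641, 0.843 at 6.41, 0.826 at 64.1 and 0.645 at 641 mg/kg. Over all 45 pairs it was 0.719, 0.705, 0.452, 0.825, 0.668 and 0.628 in the same order. Whether these medians differ between groups was not tested. The first principal component of the 10 genes' deviations held 64% of their variance and the second 13.1%.

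An array score, the mean over the 10 genes of the deviation divided by the pooled SD of each gene, shows which arrays carried this. It ran from -1.53 on replicate 5 at 6.41 mg/kg to 1.33 on replicate 2 at 0.641 mg/kg. Vehicle replicate 3 (-1.33) and replicate 3 at 0.06 mg/kg (-1.03) were also low, and replicate 4 at 64.1 mg/kg (1.20) and vehicle replicate 1 (1.15) were also high. All 8 enzymes lay above their group mean on 6 arrays and all 8 below it on 9 arrays, so the 8 moved as one on 15 of 36 arrays.

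**Figure D4:**
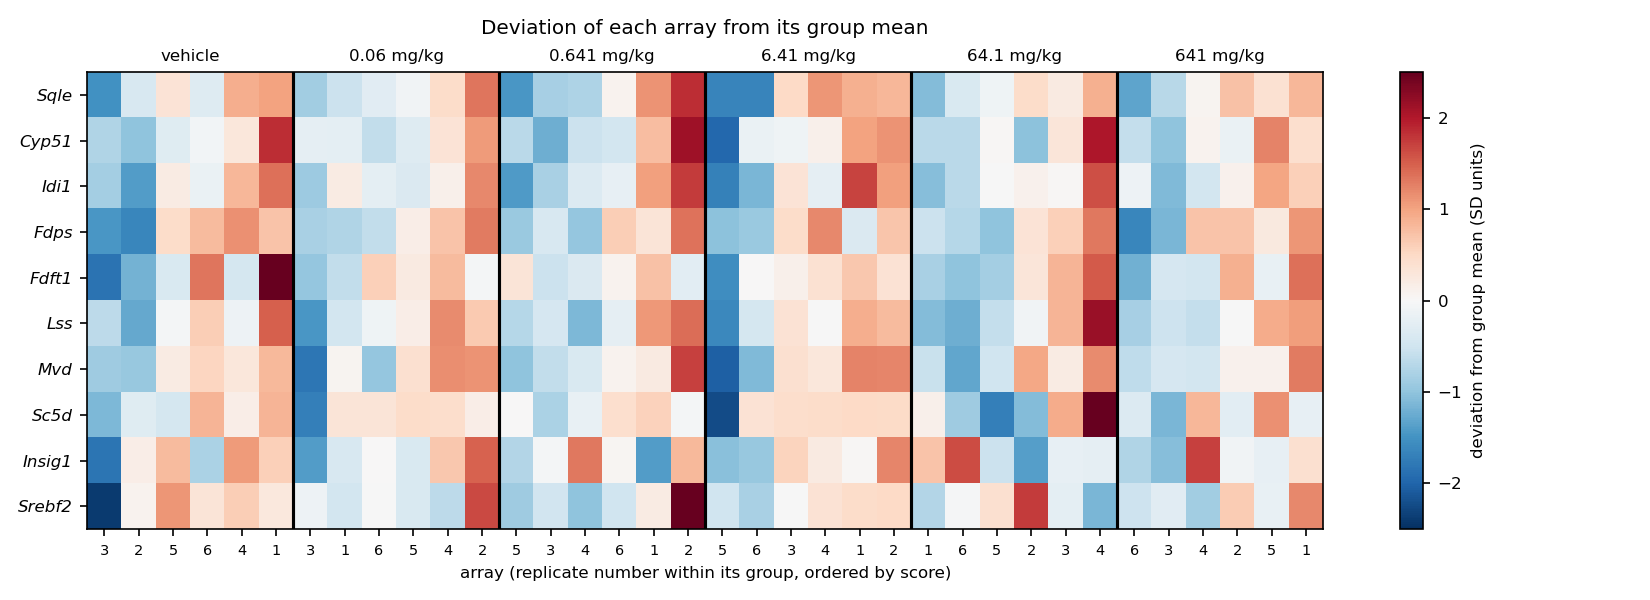
Deviation of each gene (rows) from its group mean on each of 36 arrays (columns, by group and ordered within a group by the array score), in units of the gene's pooled within-group SD from blue (below) to red (above). Low arrays such as replicate 5 at 6.41 mg/kg (score -1.53) are blue across the enzymes and high arrays such as replicate 2 at 0.641 mg/kg (1.33) are mostly red.

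On the log2 scale the mean of the 8 enzymes had lowest, median and highest values of 10.03, 10.29 and 10.52 in vehicle, 10.11, 10.33 and 10.53 at 0.06, 10.28, 10.39 and 10.73 at 0.641, 10.12, 10.54 and 10.66 at 6.41, 10.19, 10.32 and 10.69 at 64.1, and 10.32, 10.50 and 10.66 at 641 mg/kg. The highest array was 1.27-fold to 1.46-fold the lowest within a group. The group mean at 641 mg/kg was 1.17-fold that of vehicle (10.48 ± 0.14 against 10.25 ± 0.19, SD, n = 6 each), and at 0.641 and 6.41 mg/kg it was 1.15-fold and 1.16-fold. The first ratio is that of the 2 extreme arrays of a group and the others are of means of 6, so they are not on 1 footing, and no p is given for a mean over chosen genes.

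How closely a gene followed the rest differed by gene. Its r with the mean of the other 9 was highest for Sqle (0.897), Mvd (0.879), Idi1 (0.870), Lss (0.870), Fdps (0.841) and Cyp51 (0.831). It was lower for Fdft1 (0.677) and Sc5d (0.610), and lowest for Srebf2 (0.469) and Insig1 (0.363).

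Outside the 10 genes, those most like them were again genes of the pathway. The score was correlated with each of 7409 other genes with a mean level of at least 6, whose r had a median of 0.016 and 1st and 99th percentiles of -0.420 and 0.473. The highest was Msmo1 (r = 0.923; rho = 0.891; 0.904 without the 2 arrays with the most extreme score), the sterol methyl oxidase that acts after Cyp51. Next came Hsd17b7 (r = 0.887; rho = 0.889; 0.867 without 2 arrays), a reductase of the same demethylation steps, and Acat2 (r = 0.864; rho = 0.855; 0.844 without 2 arrays), the thiolase that makes acetoacetyl-CoA. Nsdhl (0.825), a sterol dehydrogenase, and Erg28 (0.811), known in yeast as a scaffold of the demethylating enzymes, followed. Dhcr7 (0.806), the last reductase of the pathway, the kinases Pmvk (0.802) and Mvk (0.785), Aacs (0.779), which activates acetoacetate, and Ebp (0.755), a sterol isomerase, made up the first 10. In all, 13 genes exceeded 0.7 and 0 lay under -0.7, and the lowest was Marcksl1 (r = -0.591; rho = -0.596).

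**Figure D5:**
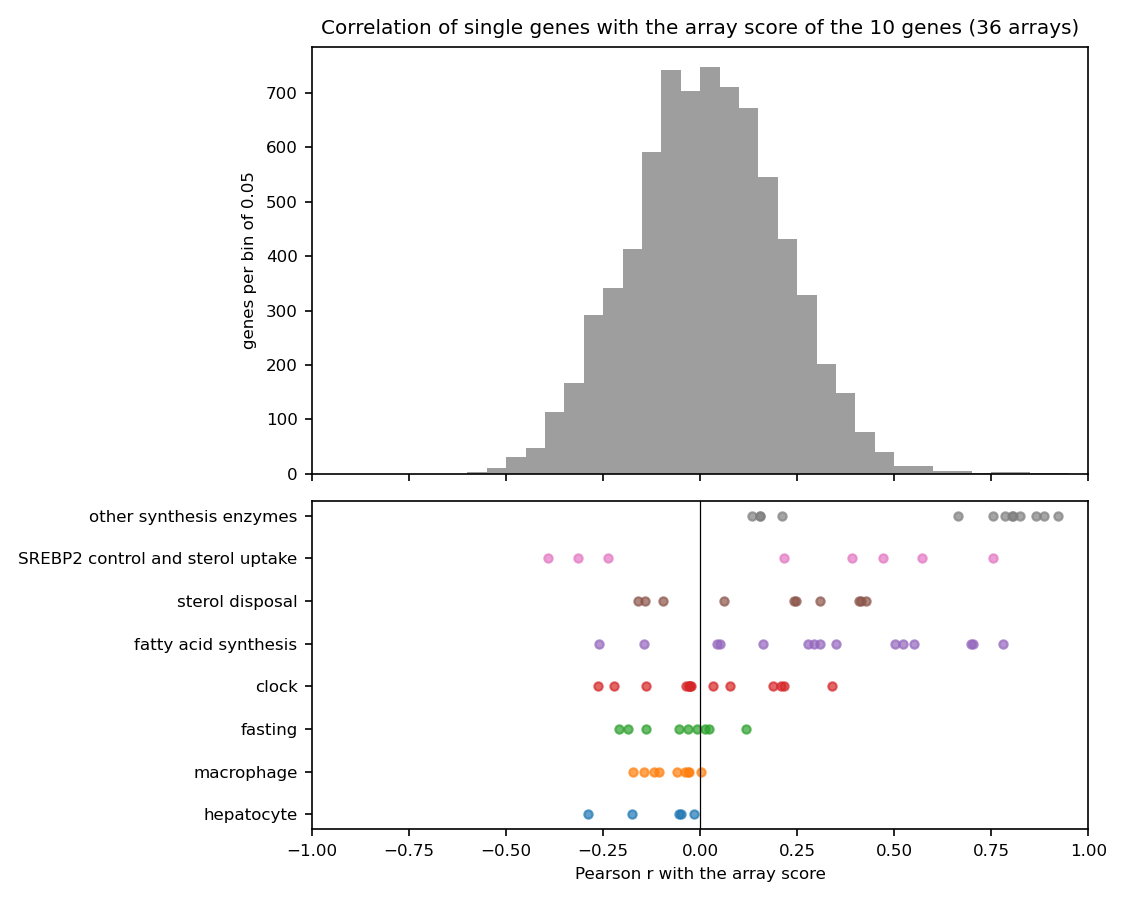
Top, number of genes per bin of Pearson r with the array score (x axis) over 36 arrays, for 7409 genes; bottom, one point per measured gene of 8 lists on the same axis. Other synthesis enzymes reach 0.923, whereas clock genes stay between -0.264 and 0.339 and macrophage genes between -0.173 and 0.003.

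Of the list of 16 other synthesis enzymes, 13 were measured, and the rest were not analysed here. Their mean level correlated with the score at r = 0.903 (rho = 0.893), and 8 of the 13 exceeded 0.7. The low members were Por (0.154) and Cyb5r3 (0.210), electron donors shared with many other enzymes, with Lbr (0.155) and Ggps1 (0.133), a reductase of the nuclear membrane and the enzyme that makes geranylgeranyl diphosphate, both at mean levels under 6. At 641 mg/kg 1.13% of all probe sets rose, and, counted by gene with 1 probe set each, 248 of 14217 genes did. Of the 13, 1 rose, Por (1.48-fold, 95% CI 1.27 to 1.73; adjusted p = 0.00268), at 8.79 ± 0.21 against 8.22 ± 0.27 in vehicle. None of the 13 was called at another dose. The others with the smallest F-test p were Nsdhl (adjusted p = 0.452), Acat2 (0.61), Mvk (0.625) and Pmvk (0.686). At 641 mg/kg Acat2 was 1.38-fold (adjusted p = 0.258) and Nsdhl 0.956-fold (0.844). The median log2 difference of the 13 was 0.08, 0.19, 0.15, 0.13 and 0.15 at the 5 doses from low to high. In the same order 11, 13, 12, 12 and 12 of them lay above 0, against 47.1%, 47.9%, 50.9%, 51.2% and 47.1% of all 14217 genes.

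The control and uptake list, which holds the SREBP escort, the proteases that cut SREBP and carriers of sterol, followed less closely. Its 8 measured genes of 11 had r of -0.391 to 0.755 with the score, highest for Tmem97 (0.755), a sterol-responsive membrane protein, and Scap (0.571), the escort itself. Insig2, the relative of Insig1, was at -0.237. None of the 8 was called at any dose, and those with the smallest F-test p were Lpin1 (adjusted p = 0.727), Insig2 (0.754), Scap (0.76) and Mbtps2 (0.836). The 10 measured genes of 11 for sterol disposal had r of -0.161 to 0.428, and none was called. Among them the smallest limma F-test p belonged to the exporters Abcg1 (adjusted p = 0.636), Abca1 (0.824) and Abcg5 (0.824) and to the bile acid enzyme Cyp8b1 (0.847).

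Fatty acid synthesis shares acetyl-CoA and, in part, SREBP control with cholesterol synthesis. Its 15 measured genes of 16 had r with the score of -0.260 for Srebf1 to 0.779 for Aacs, with Acly (0.703) and Fasn (0.697) high and Scd at 0.052. At 641 mg/kg 1.65% of all probe sets were called in either direction and 1.13% rose. Counted by gene, 248 of 14217 rose and 105 fell. Of the 15, 1 rose, Me1 (1.52-fold; adjusted p = 0.0151), and 2 fell, Scd (3.90-fold lower; adjusted p = 0.000601) and Elovl5 (1.16-fold lower; adjusted p = 0.00772). None was called at the other doses. Fads2, Fads1, Srebf1 and Acly had the smallest F-test p among the rest.

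Lists for the time of day, feeding, other cell types and RNA quality were set beside the score. The mean of the 14 clock genes measured of 15 had r = -0.006, and that of the 9 fasting genes of 11 had r = -0.078. At 641 mg/kg 1.65% of all probe sets were called in either direction, and, counted by gene, 248 of 14217 rose and 105 fell. Of the 9 fasting genes 1 was called at that dose. It was Cpt1a, which carries fatty acids into mitochondria and fell (1.49-fold lower; adjusted p = 0.000558). The median log2 difference of the 9 was -0.41 at that dose, and 1 of them lay above 0, against 47.1% of all genes. The means of the marker lists had r of -0.214 for hepatocytes (5 of 6 genes), -0.072 for macrophages (9 of 10), 0.192 for neutrophils (3 of 4), 0.215 for T and NK lymphocytes (6 of 6) and 0.164 for B lymphocytes (3 of 4). They had -0.296 for endothelium (5 of 6), -0.354 for stellate cells and fibroblasts (6 of 6), -0.145 for cholangiocytes (4 of 5), 0.234 for erythroid cells (3 of 4) and 0.086 for exocrine pancreas (6 of 6). The stellate list's mean level lay between 7.32 and 7.49 at 641 mg/kg and between 7.16 and 7.70 in vehicle. That of the macrophage list averaged 8.56 in vehicle, and 8.43, 8.37, 8.44, 8.09 and 8.45 at the 5 doses from low to high. In the same order 0, 0, 0, 0 and 1 of its 9 genes lay above vehicle, and 0 of the 3 neutrophil genes did at every dose. Of all genes 47.1%, 47.9%, 50.9%, 51.2% and 47.1% lay above vehicle. The 5 comparisons use the same 6 vehicle arrays. None of these macrophage and neutrophil genes was called at any dose. At 641 mg/kg, where 105 of 14217 genes were called lower and 1.65% of all probe sets in either direction, 1 T and NK lymphocyte gene of 6 was called lower. It was Cd8a, which also had the smallest F-test p of that list (adjusted p = 0.129). Its slope over the dose ranks was -0.122 log2 units per dose step (adjusted p = 0.00792).

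The difference between the 3-prime and 5-prime actin control probe sets had r = 0.384 with the score (rho = 0.334; 0.180 without the 2 extreme arrays), and that of Gapdh had r = 0.211 (rho = 0.068; -0.082 without 2 arrays). The array median had r = -0.273 (rho = -0.177; -0.163 without 2 arrays). The part of RNA quality, cell makeup, feeding and time of sampling in the shared variation was not tested, and the labels give no time of sampling, order of gavage or scan.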

How the data were processed

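Transcript levels were measured on 36 one-colour Affymetrix arrays of rat liver, 6 in each of 6 groups, which were taken from the sample labels. The authors deposited log2 expression values per probe set, made, per the submitters' processing notes, with RMA from affy. Versions, settings and a genome build are not given in the sources used here. No further normalization was applied. Of 31099 probe sets, 57 controls were left out. Symbols came from the platform annotation, updated through RefSeq tables (20758 by gene ID and 2 by accession), and 66 were kept as annotated. Probe sets with several symbols (436) or none (9780) were tested but not named.

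The series design names R/maanova as its package; here limma 3.58.1 in R 4.3.3 was used in its place, with a mean for each of the 6 groups and all 36 arrays in 1 fit. Two-sided p-values were adjusted by Benjamini and Hochberg's method over all probe sets within a contrast, and 0.05 was the threshold. Where no tool is named, an adjusted p is limma's, and intervals are 95% confidence intervals of its fit. Correlations used deviations from group means, in Python 3.11.15 with numpy 2.4.6 and scipy 1.17.1. Permutation p-values came from 100000 shuffles within groups, adjusted over 45 pairs, and 1e-05 is the smallest they can give. The fit was also tested on simulated data with known changes.

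The labels number the replicates and do not say whether each stands for its own rat. The p-values therefore rest on the spread among samples of a group, which could be technical. Within groups, pairs of arrays had r of 0.991 to 0.997 over all probe sets, and 0 pairs held identical values. The number of arrays limits the precision. The genes and lists were chosen with earlier results of these data known. Named genes were the 10 genes at every dose, list genes called at any dose with up to 4 others per list by F-test p, and the 10 genes most like the array score. The lowest gene by score, other list genes whose correlation is printed, the promoter motifs and the genes most like Insig1 and Srebf2 were chosen after their values were seen. Alternatives covered the replicate block, a filter on dim probe sets, centring, another round of quantile normalization, variance models, array weights, the groups in the fit, the adjustment, the mean of a gene's probe sets, and leaving out arrays or groups.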

Additional observations from a re-analysis of the deposited data

Results flagged for a closer look

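A sample was singled out where the gap from the lowest or highest array of a group to its neighbour, as a share of the group's range, was above Dixon's 95% critical value for 6 arrays. Of 102 combinations of probe set and group, 7 were, and chance gives about 1 in 20. Low arrays were replicate 5 at 6.41 mg/kg for Sc5d 1389111_at (share 0.949; log2 level 10.64) and for Fdft1 1367839_at (0.703; 10.16), replicate 3 at 0.06 mg/kg for Sc5d 1389111_at (0.864; 10.66), and replicate 3 at 0.641 mg/kg for Sc5d 1390777_at (0.664; 10.78). Vehicle replicate 3 was low for Srebf2 1371979_at (0.708; 7.39). High arrays for that Srebf2 probe set were replicate 2 at 0.06 mg/kg (0.721; 8.19) and replicate 2 at 0.641 mg/kg (0.673; 8.38). Of these, replicate 5 at 6.41 mg/kg and vehicle replicate 3 had the lowest 2 array scores, -1.53 and -1.33, and replicate 2 at 0.641 mg/kg had the highest, 1.33.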

How the results depend on the processing

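The 1 call at 641 mg/kg was lost, with a count of 0, when only the 2 groups entered the fit (Sc5d adjusted p = 0.0793), when p was adjusted over the 5 doses together, and when the probe sets of a gene were averaged. Leaving out 1 array gave 0 to 3 calls. It remained 1 with the replicate block (adjusted p = 0.0451), with array weights, centring, repeated quantile normalization, the filter on dim probe sets and the variance trend. The slope gave 1 call with that filter, and 0 to 1 without 1 array, the 1 being without vehicle replicate 1. No member was called at the other doses or by the F test under any alternative. Averaging probe sets turned the sign of Srebf2 at 641 mg/kg, to -0.0187 on the log2 scale, and of Lss at 0.06 mg/kg, to 0.0101. That mean of Srebf2 includes its dim probe set. At 0.06 mg/kg Mvd, at 0.00, became 0.0048 after centring and 0.0032 with array weights. Without 1 array it ran from -0.0595 to 0.0917, Lss from -0.0871 to 0.0520 and Insig1 from -0.0205 to 0.365 at that dose. Srebf2 ran from -0.00099 to 0.121 at 6.41 mg/kg, and at 64.1 mg/kg Lss ran from -0.0541 to 0.129 and Sc5d 1389111_at from -0.00942 to 0.112. None of these values was called, and the cause was not tested. The median r of the 45 pairs was 0.719 with averaged probe sets, against 0.587, and 0.553 to 0.627 without 1 array. The median r of the 28 enzyme pairs ran from 0.660 to 0.770 over the alternatives and from 0.672 to 0.737 without 1 array, and the median SD from 0.201 to 0.218 without 1 array. With the replicate block the median r was 0.583 over the 45 pairs and 0.683 over the 28. Whether arrays of the same replicate number share a step was not tested. Same-numbered dose and vehicle arrays correlated at -0.252 to 0.220 in their deviations over all probe sets. At most 2 of 6 pairs were over 0.1 at a dose. Arrays of unlike number, and pairs between dose groups, were not set beside them. The array score of replicate 3 was -1.33 in vehicle, -1.03 at 0.06, -0.613 at 0.641 and -0.779 at 641 mg/kg. At 6.41 and 64.1 mg/kg it was 0.305 and 0.353. The files hold no detection calls.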

Other observations

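Insig1 varied with genes other than the enzymes. Over the 36 arrays its deviations from group means were most like those of Pip4p1 (r = 0.826; rho = 0.822), Ppp4r3a (r = 0.792; rho = 0.786), Flvcr1, a heme exporter (r = 0.781; rho = 0.753), and Stard4, a carrier of sterol inside the cell (r = 0.779; rho = 0.724). Prkab1, a subunit of the energy sensor AMPK, was at 0.767, and Mid1ip1, which promotes the assembly of acetyl-CoA carboxylase, at 0.762. The most opposed was Nr5a2, a nuclear receptor of liver and bile acid genes, at r = -0.738 (rho = -0.728). Stard4 itself had r = 0.392 with the array score. These genes were chosen for their values, so the correlations are a description with no p.

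Srebf2 was most like Grina (r = 0.798; rho = 0.765), the amino acid transporter Slc38a3 (r = 0.766; rho = 0.724), Sema4g (r = 0.766) and Col18a1 (r = 0.766), and none of its 8 closest genes was a cholesterol synthesis enzyme. Its most opposed gene was Atxn2 (r = -0.665; rho = -0.502).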
